A study of Mus musculus with 2 samples.

Results

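Slits, ephrins, semaphorins and netrins, and the Robo, Eph, plexin and Unc5 receptors that bind them, were first known for steering growing axons, and the same pairs act in boundary formation, cell sorting, migration and vessel growth in many organs. The genes described here were taken by symbol alone: every feature named as a Slit, Robo, EphA or EphB receptor, ephrin-A or ephrin-B, semaphorin, plexin, netrin or Unc5. The rule found 68 of the 31055 features, of which 65 are protein-coding and 3 are antisense transcripts in the *Plxna4* locus. They comprise 20 semaphorins, 9 plexins, 9 EphA and 5 EphB receptors, 5 ephrin-A and 3 ephrin-B ligands, 3 Slits, 4 Robos, 3 netrins and 4 Unc5 receptors. The symbol rule itself reads no expression value.

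The cells came from pituitaries of *Sox9iresGFP/+* mice at postnatal day 3, in which GFP is made from the *Sox9* locus, a gene active in pituitary stem cells (SCs). GFP+ cells were sorted, and 3 male pituitaries were pooled in 1 droplet library and 3 female pituitaries in another. GFP can outlast *Sox9* in the progeny of a SC, so a GFP+ sort can hold more than SCs although the labels name the cells as stem cells. No wild-type or GFP-negative library was part of the design, and both libraries share the allele and the age.

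The pituitary SC expresses *Sox2* and *Sox9*, can enter a differentiating state and gives rise to hormone-producing endocrine cells, and the gland also holds mesenchyme of other origin. Slits are secreted proteins that bind Robo receptors. Ephrins are held at the membrane, so that they meet Eph receptors on a touching cell and can signal in both directions. Class 3 semaphorins are secreted and act through plexins, mostly with a neuropilin as co-receptor, whereas the other semaphorin classes are largely membrane-bound. Netrins bind DCC, neogenin and the Unc5 receptors.

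The libraries held 10569 (male) and 5796 (female) cell barcodes, with 106039887 and 62897759 unique molecular identifiers (UMIs, each counting 1 captured transcript). Filtering on genes and mitochondrial share left 10410 and 5711 cells, and 19 barcode sequences occurred in both libraries. Raw UMIs of marker genes, none of them a guidance gene, then set 6 classes, with numbers given for the male and then the female library here and in the rest of the text. SCs (at least 2 *Sox2* and 1 *Sox9* UMIs with no *Lef1* UMI) numbered 1826 and 1863. Differentiating cells (at least 2 *Lef1* and 1 *Sox2* UMIs) numbered 804 and 570. The endocrine cells formed the next classes. Gonadotrophs (at least 10 *Cga* UMIs, 1 UMI of *Gnrhr*, *Nr5a1*, *Fshb* or *Lhb*, and no *Pou1f1* UMI) numbered 486 and 43. Cells of the POU1F1 lineage (at least 2 *Pou1f1* UMIs) numbered 790 and 282. Melanotrophs (at least 50 *Pomc* UMIs and 1 UMI of *Pax7* or *Tbx19*) numbered 225 and 127. Mesenchymal cells, gated on *Dcn* and collagen UMIs without *Pitx1* or *Epcam*, numbered 502 and 289. A further 88 and 17 cells met more than 1 gate and were set aside as mixed, and 5689 and 2520 met none. The cells meeting none had a median of 2588 UMIs in the first and 8814.5 in the second library.

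Genes that took no part in the gates were used to check them. *Hes1* (925 and 1705 CPM, that is, UMIs per 1000000) and *Aldh1a2* (744 and 534 CPM) were highest in the SC class, but *S100b* was near 0 there at 0.523 and 0.278 CPM, and *Gfra2* was higher in mesenchyme. The differentiating class had the highest *Gadd45g* (879 and 644 CPM). The gonadotroph markers *Foxl2* and *Neurod1* summed to 178 and 123 CPM there, against 11.6 and 2.60 CPM in SCs and 1164 and 1833 CPM in gonadotrophs. *Gh* was highest in the POU1F1 lineage (18313 and 35391 CPM) and *Pcsk2* in melanotrophs (1304 and 1645 CPM). Corticotrophs also make POMC and the gate did not require *Pax7*, so the melanotroph class can hold corticotrophs. The gate genes *Pax7* and *Tbx19* were at 165 and 207 CPM and at 55.5 and 92.4 CPM in that class. The share of corticotrophs in it was not determined. The mesenchymal class held *Pdgfra* at 398 and 474 CPM and *Tcf21* at 739 and 568 CPM. It also held markers of endothelium and pericytes, with *Emcn* at 202 and 217 CPM, *Cdh5* at 28.4 and 44.3 CPM and *Pdgfrb* at 235 and 186 CPM. *Pecam1* was at 0.455 and 0.820 CPM there, and *Cspg4*, another pericyte marker, at 5.46 and 6.56 CPM. *Ptprc*, the pan-leukocyte marker, had no UMI in any class. With *C1qa*, *C1qb* and *Tyrobp* the immune list summed to 3.73 and 5.09 CPM in the POU1F1 lineage. Most of that was *C1qb* (3.66 and 4.32 CPM), and the sum was 3.28 CPM or less in every other class. Cells with the highest doublet scores made up 3.18% and 4.94% of SCs, 7.09% and 5.79% of differentiating cells, 11.7% and 4.65% of gonadotrophs, 12.0% and 7.80% of the POU1F1 lineage, 10.7% and 3.15% of melanotrophs and 1.79% and 0.346% of mesenchymal cells. They made up 63.6% and 76.5% of the mixed cells that were set aside.

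Each level below adds up a gene's UMIs across all cells of a class, separately for each library, divides them by all UMIs of those cells, and is given as CPM with an exact Poisson 95% interval. The interval covers counting error only. A 3′ UMI is counted once per transcript whatever the gene's length, and levels are compared between classes for 1 gene, not between genes. With 1 library per sex there is no replicate, so no test was made and no p-value is given. A difference between classes was called when the ratio of (CPM + 1) was at least 2-fold in the same direction in both libraries, among features with a mean of at least 5 CPM over the classes and libraries compared.

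Of the 68 genes, 36 reached 10 CPM in both libraries in at least 1 class. By class these were 24 genes in SCs, 16 in differentiating cells, 13 in gonadotrophs, 14 in the POU1F1 lineage, 18 in melanotrophs and 22 in mesenchyme. For 27 of the 36 the class with the highest level was the same in both libraries, and it was mesenchyme for 13, SCs for 5, gonadotrophs for 3, melanotrophs for 3, differentiating cells for 2 and the POU1F1 lineage for 1. Neither the counts by class nor the counts by highest class were made over all features, so they describe these genes only. The summed level of the 68 genes was 736 and 746 CPM in SCs and 481 and 527 CPM in differentiating cells. It was 597 and 520 CPM in gonadotrophs, 495 and 491 CPM in the POU1F1 lineage, 440 and 537 CPM in melanotrophs, and 929 and 1003 CPM in mesenchyme. Both libraries therefore placed mesenchyme first and SCs second in summed level.

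**Figure D1:**
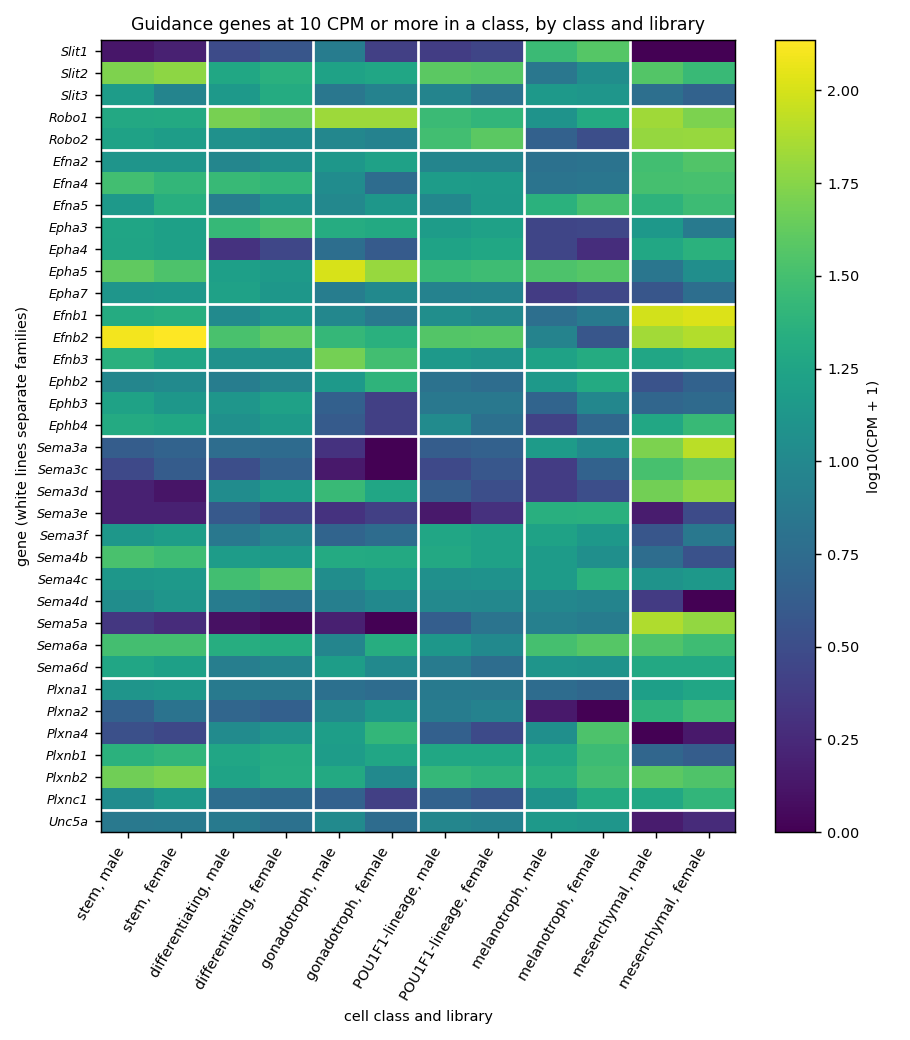
Levels of the 36 genes that reached 10 CPM in both libraries in at least 1 class, as log10(CPM + 1), with genes in rows grouped by family and each class shown for the male and the female library. *Efnb2* was brightest in SCs (125 and 135 CPM), *Epha5* in gonadotrophs (100.4 and 62.5 CPM) and *Efnb1* in mesenchyme (96.2 and 105 CPM).

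The upstream sequences of *Efnb2*, *Slit2*, *Robo1* and *Sema3d* are shown because *Efnb2* and *Slit2* were lower and *Robo1* and *Sema3d* higher in cells gated on *Lef1*, a transcription factor whose family recognises a short DNA core. Each is the 250 bases before a RefSeq start on GRCm38.p6, written 5′ to 3′ on the gene's strand, and capitals mark the TCF/LEF core CTTTGT or its reverse complement ACAAAG. The *Efnb2* window is chr8:8661243-8661492 on the minus strand and the *Slit2* window is chr5:47982905-47983154 on the plus strand. The *Robo1* window, chr16:72662899-72663148 on the plus strand, starts inside the annotated gene and precedes an internal start. The *Sema3d* window is chr5:12382916-12383165 on the plus strand, and it precedes a RefSeq start that lies before the gene start at 12383385 in the GENCODE annotation and was not found in its transcripts.
Efnb2: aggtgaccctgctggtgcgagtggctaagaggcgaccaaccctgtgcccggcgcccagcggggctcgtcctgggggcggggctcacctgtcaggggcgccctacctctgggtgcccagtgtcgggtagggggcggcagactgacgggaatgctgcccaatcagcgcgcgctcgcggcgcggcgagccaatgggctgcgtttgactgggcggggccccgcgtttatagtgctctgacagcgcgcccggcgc
Slit2: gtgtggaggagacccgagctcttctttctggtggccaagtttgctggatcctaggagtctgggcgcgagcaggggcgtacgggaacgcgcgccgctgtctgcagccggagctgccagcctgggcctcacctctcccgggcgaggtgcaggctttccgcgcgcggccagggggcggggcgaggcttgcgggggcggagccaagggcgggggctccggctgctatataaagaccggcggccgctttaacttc
Robo1: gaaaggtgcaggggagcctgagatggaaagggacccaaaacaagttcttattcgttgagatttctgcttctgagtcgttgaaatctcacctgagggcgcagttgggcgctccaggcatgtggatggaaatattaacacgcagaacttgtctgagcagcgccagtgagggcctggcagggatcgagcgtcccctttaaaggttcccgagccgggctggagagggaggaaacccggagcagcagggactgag
Sema3d: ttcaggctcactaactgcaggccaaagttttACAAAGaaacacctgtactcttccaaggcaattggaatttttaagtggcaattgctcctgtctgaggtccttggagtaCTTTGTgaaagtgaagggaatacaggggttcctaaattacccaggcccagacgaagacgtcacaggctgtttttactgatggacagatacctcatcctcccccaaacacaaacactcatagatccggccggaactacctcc
The core occurred 2 times in the *Sema3d* window, once on each strand, and in none of the other windows shown. Over all guidance genes it was found in 7 of 72 windows (9.72%), from the 56 genes with a window, against 16.5% of the 32851 windows of all genes. The SOX core ACAAT, searched on both strands, was in 13 of the 72 windows (18.1%) against 27.7% of all windows. A match of letters is a description and not a binding site.

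Among the ephrin-B ligands, *Efnb2* (ENSMUSG00000001300, chr8:8617434-8661242 on the minus strand of mm10) was highest in SCs in both libraries. Its level was 125 CPM (95% interval 121 to 129) in male and 135 CPM (131 to 140) in female SCs. It fell to 32.0 CPM (28.9 to 35.3) and 39.2 CPM (35.0 to 43.7) in differentiating cells. All endocrine classes lay lower than SCs, at 25.5 and 21.9 CPM in gonadotrophs, 35.5 and 36.1 CPM in the POU1F1 lineage, and 8.07 and 2.74 CPM in melanotrophs. Mesenchyme was between, at 67.5 and 77.1 CPM. After every cell was thinned to 5000 UMIs, an *Efnb2* UMI was found in 41.1% (38.8 to 43.5) and 44.7% (42.4 to 47.0) of SCs, and in 2.53% and 0.794% of melanotrophs, with exact binomial intervals. Without thinning these shares were 68.1% and 66.3% of SCs at median depths of 11742 and 9905 UMIs, and 9.78% and 4.72% of melanotrophs at 20049 and 15505 UMIs.

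*Efnb1*, an X-linked ephrin-B ligand known for its part in craniofacial mesenchyme, had mesenchyme and SCs in the reverse order. It reached 96.2 CPM (87.3 to 106) and 105 CPM (92.1 to 118) in mesenchyme, against 19.5 and 21.0 CPM in SCs and 9.43 and 12.2 CPM in differentiating cells. The endocrine classes ranged from 5.05 to 10.4 CPM among male and from 6.25 to 8.90 CPM among female cells. *Efnb3* was highest in gonadotrophs, at 48.1 CPM (43.3 to 53.4) from 359 UMIs and 29.7 CPM (17.9 to 46.3) from 19 UMIs. In SCs and mesenchyme *Efnb3* lay between 17.3 and 21.6 CPM, with no common order between the libraries. The ephrin-B ligands were thus each highest in a different class: SCs, mesenchyme and gonadotrophs.

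The EphB receptors, which bind ephrin-B ligands, were found mostly at lower counts. *Ephb4*, best known as the venous receptor of ephrin-B2, had 19.0 CPM (17.5 to 20.7) and 17.7 CPM (16.0 to 19.6) in SCs, and mesenchyme had 18.2 CPM (14.4 to 22.6) and 26.2 CPM (20.2 to 33.5). It was below 10 CPM in every endocrine class. *Ephb3* was at 15.8 and 12.6 CPM in SCs and at 12.2 and 15.6 CPM in differentiating cells, and the order of these classes differed between the libraries. *Ephb2* was highest in gonadotrophs (13.4 and 23.4 CPM) and melanotrophs (13.3 and 19.2 CPM) and lowest in mesenchyme (3.69 CPM or less). *Ephb1* and *Ephb6*, the latter a receptor without kinase activity, stayed below 10 CPM in one or both libraries in every class. SCs therefore carried transcripts of *Efnb2* together with *Ephb4* and *Ephb3*, and mesenchyme carried *Efnb1*, *Efnb2* and *Ephb4*.

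*Epha4*, a receptor that takes ephrins of both the A and B kind, separated SCs from differentiating cells more than any other guidance gene that was lower in the latter. SCs had 16.8 CPM (15.3 to 18.4) and 15.3 CPM (13.7 to 17.1), whereas differentiating cells had 1.05 CPM (0.558 to 1.79) and 1.87 CPM (1.05 to 3.09). The POU1F1 lineage (16.2 and 17.5 CPM) and mesenchyme (18.0 and 22.1 CPM) had intervals that overlapped those of SCs in each library. Gonadotrophs (4.96 and 3.12 CPM) and melanotrophs (1.82 and 0.915 CPM) did not. *Epha3* went another way, at 17.1 and 15.3 CPM in SCs, 25.7 and 32.3 CPM in differentiating cells, and 1.82 and 1.83 CPM in melanotrophs.

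*Epha5* (ENSMUSG00000029245, chr5:84054761-84417382 on the minus strand of mm10), a receptor best known from the brain, was highest in gonadotrophs. Its level there was 100.4 CPM (93.4 to 108) from 749 male UMIs and 62.5 CPM (44.6 to 85.1) from 40 female UMIs, and with doubled gate minimums it was 115 and 116 CPM. SCs had 40.3 and 33.7 CPM, melanotrophs 33.5 and 36.1 CPM and the POU1F1 lineage 26.3 and 28.5 CPM. Differentiating cells had 15.0 and 13.6 CPM and mesenchyme 5.91 and 10.2 CPM. In thinned cells an *Epha5* UMI was present in 34.9% (30.5 to 39.6) of male and 23.8% (12.1 to 39.5) of female gonadotrophs, and in 1.84% and 4.21% of mesenchymal cells. Gonadotroph values in the female library rest on 43 cells throughout. *Epha7* was at 12.1 and 12.8 CPM in SCs and 15.7 and 12.6 CPM in differentiating cells, and was at 2.73 and 4.92 CPM in mesenchyme.

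The ephrin-A ligands, which are anchored to the membrane by a lipid, were spread over the classes. *Efna4* had overlapping intervals in SCs (29.6 and 24.8 CPM) and differentiating cells (26.4 and 24.2 CPM), was at 31.2 and 31.6 CPM in mesenchyme, and was lower in melanotrophs (5.65 and 5.95 CPM). *Efna2* was highest in mesenchyme at 29.8 CPM (24.9 to 35.4) and 34.8 CPM (27.8 to 43.1), against 12.1 and 12.0 CPM in SCs. *Efna5* was at 23.2 and 27.9 CPM in mesenchyme and 22.2 and 31.1 CPM in melanotrophs, and those classes overlapped in both libraries. Gonadotrophs, where *Epha5* was highest, had *Efna2* at 12.6 and 15.6 CPM and *Efna5* at 8.98 and 12.5 CPM.

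The Slits were divided between the classes. *Slit2* (ENSMUSG00000031558, chr5:47983138-48307733 on the plus strand of mm10) was highest in SCs, at 52.0 CPM (49.4 to 54.7) and 58.6 CPM (55.4 to 61.9). The POU1F1 lineage came next at 38.9 CPM (35.5 to 42.5) and 36.6 CPM (30.9 to 43.1), and mesenchyme had 35.9 CPM (30.5 to 42.0) and 27.1 CPM (20.9 to 34.4). The POU1F1 lineage and mesenchyme could not be separated by their intervals. Differentiating cells (17.7 and 21.6 CPM) and gonadotrophs (16.1 and 17.2 CPM) lay lower, and melanotrophs lowest (6.05 and 10.1 CPM), although female melanotrophs and gonadotrophs overlapped. In thinned cells a *Slit2* UMI was found in 21.0% (19.1 to 23.0) and 23.7% (21.7 to 25.7) of SCs and in 4.04% and 5.56% of melanotrophs.

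*Slit1* was highest in the melanotroph class, at 27.6 CPM (23.2 to 32.7) and 36.1 CPM (28.6 to 45.0). SCs had 0.349 and 0.556 CPM, and mesenchyme had 0 UMIs in both libraries, where a floor of 3 UMIs corresponds to 0.682 and 1.23 CPM. In male gonadotrophs *Slit1* was at 6.84 CPM from 51 UMIs, whereas the female library had 1 UMI in that class. *Slit3* was at 14.2 and 8.20 CPM in SCs, 13.1 and 19.5 CPM in differentiating cells and 13.1 and 12.4 CPM in melanotrophs, so that its highest class differed between the libraries.

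*Robo1* (ENSMUSG00000022883, chr16:72308306-73046095 on the plus strand of mm10) was lower in SCs than in differentiating cells. SCs showed 18.3 CPM (16.7 to 19.9) and 18.7 CPM (16.9 to 20.6), and differentiating cells 48.5 CPM (44.7 to 52.6) and 43.7 CPM (39.2 to 48.5). Gonadotrophs had 65.2 CPM (59.5 to 71.2) and 65.6 CPM (47.3 to 88.7), and mesenchyme 66.4 CPM (59.0 to 74.5) and 51.2 CPM (42.6 to 61.0), so that gonadotrophs and mesenchyme did not differ beyond their intervals. The POU1F1 lineage (27.4 and 24.4 CPM) and melanotrophs (11.5 and 19.2 CPM) were nearer to SCs. *Robo2* had another distribution, at 61.2 and 63.1 CPM in mesenchyme, 29.7 and 38.9 CPM in the POU1F1 lineage, 15.9 and 14.3 CPM in SCs and 3.63 and 2.29 CPM in melanotrophs. *Robo3* had 4 and 1 UMIs over all cells kept, and *Robo4*, an endothelial Robo, had 0 and 2. *Slit2* was thus highest in SCs, and the classes highest in *Robo1* were gonadotrophs and mesenchyme. The levels were not complementary over all classes. Melanotrophs were low in both, with *Slit2* at 6.05 and 10.1 CPM, and mesenchyme held *Slit2* at 35.9 and 27.1 CPM beside its *Robo1*.

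**Figure D2:**
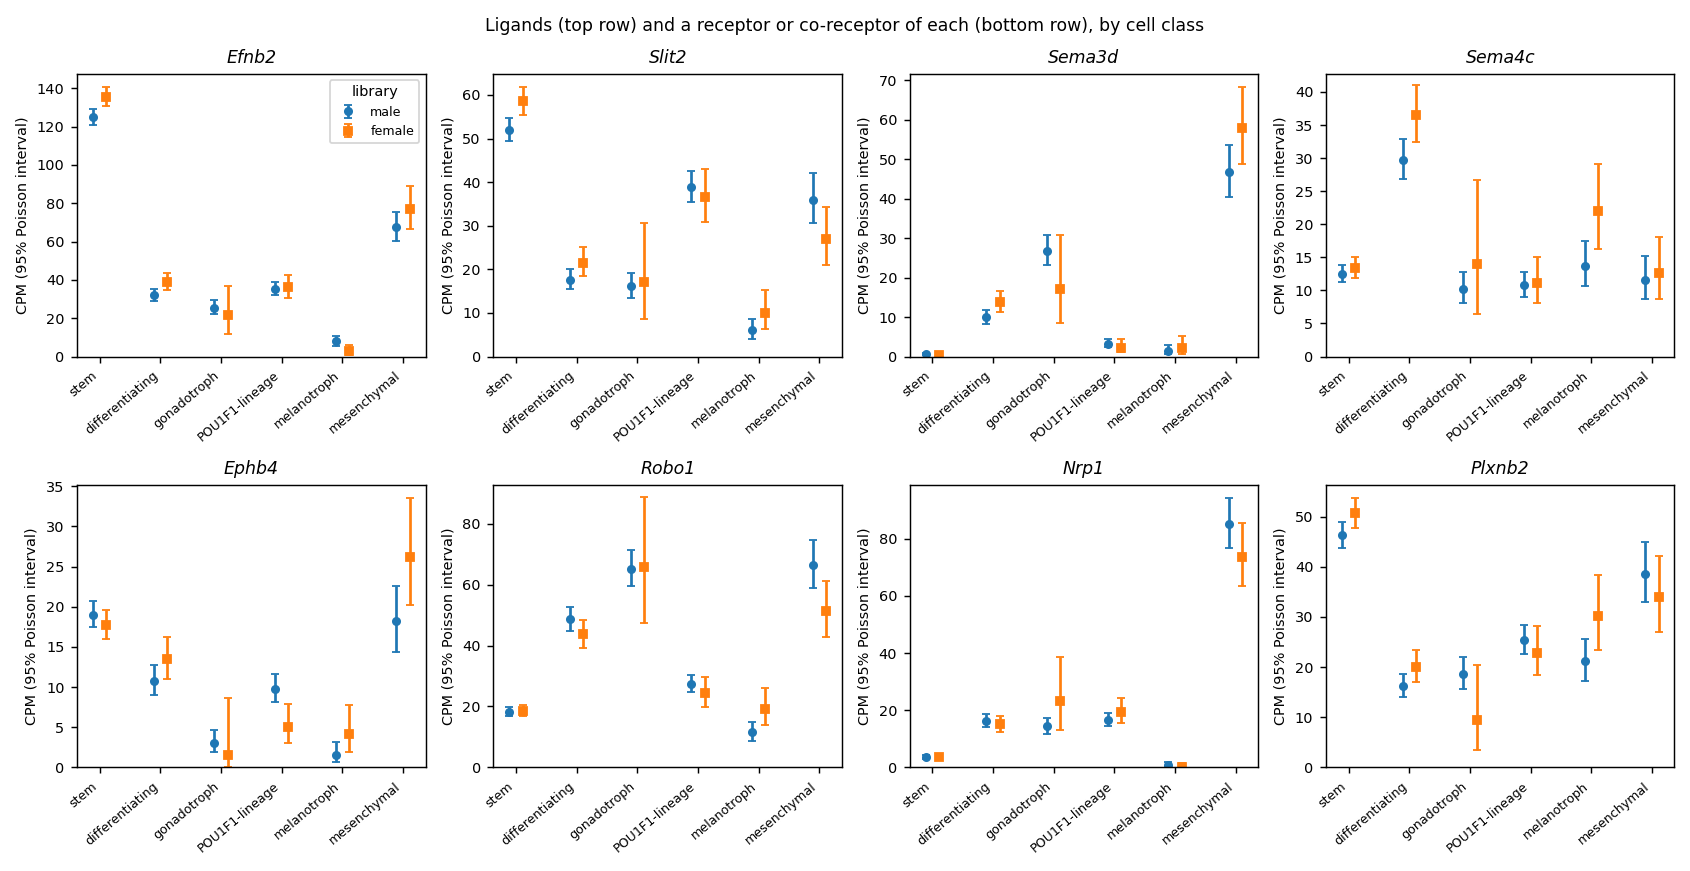
Levels in CPM with exact Poisson 95% intervals of 4 ligands (top row: *Efnb2*, *Slit2*, *Sema3d*, *Sema4c*) and of a receptor or co-receptor of each (bottom row: *Ephb4*, *Robo1*, *Nrp1*, *Plxnb2*) in the 6 classes, with circles for the male and squares for the female library. *Slit2* fell from 52.0 and 58.6 CPM in SCs to 17.7 and 21.6 CPM in differentiating cells, while *Robo1* went from 18.3 and 18.7 to 48.5 and 43.7 CPM.

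Class 3 semaphorins were for the most part mesenchymal. *Sema3a*, a secreted repellent of axons, reached 50.3 CPM (43.9 to 57.3) and 80.3 CPM (69.5 to 92.4) among mesenchymal cells and was next highest in melanotrophs at 13.9 and 9.61 CPM. *Sema3c*, known from cardiac outflow tract development, was at 31.8 and 40.6 CPM in mesenchyme and at 3.66 CPM or less in every other class. *Sema3d* (ENSMUSG00000040254, chr5:12383385-12588948 on the plus strand of mm10) reached 46.6 CPM (40.5 to 53.5) and 57.8 CPM (48.6 to 68.2) there. *Sema3d* was also present in gonadotrophs (26.8 and 17.2 CPM) and differentiating cells (10.0 and 13.7 CPM), and was near 0 in SCs with 16 and 7 UMIs, or 0.558 and 0.324 CPM.

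*Sema3e* and *Sema3f* lay outside mesenchyme. *Sema3e* was highest in the melanotroph class, at 21.2 CPM (17.3 to 25.7) and 21.5 CPM (15.8 to 28.6). It was at 2.98 CPM or less in all other classes. Its plexin, *Plxnd1*, which binds SEMA3E without a neuropilin, was at 8.41 and 7.79 CPM in mesenchyme, at 6.17 and 1.56 CPM in gonadotrophs and at 1.01 and 0.457 CPM in melanotrophs. *Sema3f* was highest in the POU1F1 lineage at 17.3 and 15.5 CPM, and was at 12.5 and 14.3 CPM in SCs and at 2.73 and 6.15 CPM in mesenchyme.

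The neuropilins are not part of the symbol rule, but most class 3 semaphorins act with them. *Nrp1* reached 85.1 CPM (76.7 to 94.1) and 73.8 CPM (63.4 to 85.4) among mesenchymal cells, with 16.3 and 15.1 CPM in differentiating cells and 3.56 and 3.80 CPM in SCs. *Nrp2* was at 81.9 and 82.4 CPM in mesenchyme but at 52.4 CPM (49.7 to 55.1) and 47.2 CPM (44.3 to 50.2) in SCs, and at 11.0 and 8.36 CPM in differentiating cells. Differentiating cells therefore had more *Nrp1* and less *Nrp2* than SCs in both libraries, and mesenchyme had both neuropilins together with *Sema3a*, *Sema3c* and *Sema3d*.

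Among A-type plexins, *Plxna2* was highest in mesenchyme (23.0 and 29.1 CPM) and had 2 and 0 UMIs in melanotrophs. *Plxna1* was at 15.0 and 17.2 CPM in mesenchyme and 12.0 and 12.7 CPM in SCs, and those classes overlapped in both libraries. *Plxna4* was nearly absent from mesenchyme, with 0 and 1 UMIs. It was at 2.34 and 1.90 CPM in SCs, 9.68 and 12.1 CPM in differentiating cells, 14.6 and 25.0 CPM in gonadotrophs and 10.5 and 33.8 CPM in melanotrophs.

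The class 4 semaphorins that reached 10 CPM were highest outside mesenchyme. *Sema4b* was highest in SCs (32.3 and 28.4 CPM) and was at 14.3 and 13.6 CPM in differentiating cells and 4.78 and 2.46 CPM in mesenchyme. *Sema4c*, a ligand of plexin-B2, was highest in differentiating cells at 29.8 CPM (26.8 to 33.0) and 36.5 CPM (32.5 to 41.0), against 12.5 and 13.4 CPM in SCs. *Sema4d*, a ligand of plexin-B1, was at 10.2 and 11.9 CPM in SCs, and mesenchyme had 6 and 0 UMIs. *Plxnb2* was highest in SCs at 46.3 CPM (43.8 to 48.9) and 50.7 CPM (47.8 to 53.8), and was at 16.2 and 20.1 CPM in differentiating cells and 38.7 and 34.0 CPM in mesenchyme. *Plxnb1* was at 14.2 CPM or more in every epithelial and endocrine class in both libraries, and at 4.09 and 3.28 CPM in mesenchyme. In differentiating cells *Sema4c* was thus higher and *Plxnb2* lower than in SCs.

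*Sema5a*, a transmembrane semaphorin, was mesenchymal at 75.1 CPM (67.2 to 83.6) and 60.7 CPM (51.3 to 71.3), against 1.22 and 0.881 CPM in SCs, and 3 and 1 UMIs in differentiating cells. Its partner *Plxnb3* had 5 and 1 UMIs over all cells kept. *Sema6a* was found at similar levels in SCs (30.2 and 30.2 CPM), melanotrophs (31.3 and 36.1 CPM) and mesenchyme (34.6 and 28.7 CPM), with overlapping intervals. *Sema6d*, a ligand of plexin-A1, was at 17.4 and 15.3 CPM in SCs and 18.4 and 18.4 CPM in mesenchyme. *Plxnc1* was at 18.2 and 24.2 CPM in mesenchyme and 11.5 and 19.2 CPM in melanotrophs, and its ligand *Sema7a* had 7 and 1 UMIs over all cells kept.

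No netrin reached 10 CPM in both libraries in any class, whereas some netrin receptors did. *Ntn1* reached 7.28 CPM (4.98 to 10.3) and 13.1 CPM (8.97 to 18.5) in mesenchyme, from 32 UMIs in each library, and was at 2.83 CPM or less elsewhere. *Ntn4*, a netrin of basement membranes, was at 7.51 and 3.12 CPM in gonadotrophs and 5.24 and 7.12 CPM in the POU1F1 lineage, and had no UMI in mesenchyme. Of the Unc5 receptors, *Unc5a* alone reached 10 CPM in both libraries, in melanotrophs (13.1 and 12.4 CPM). *Dcc*, the netrin receptor outside the symbol rule, went from 1.95 and 1.53 CPM among SCs to 32.6 CPM (29.5 to 35.9) and 27.3 CPM (23.8 to 31.2) among differentiating cells. *Dcc* was also present in melanotrophs (23.4 and 39.8 CPM) and had 0 UMIs in mesenchyme. *Neo1*, which encodes neogenin, was found in every class, from 19.3 and 23.3 CPM in differentiating cells to 74.5 and 67.2 CPM in gonadotrophs.

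The remaining 32 genes did not reach 10 CPM in both libraries in any class. They include *Efna1*, *Epha1*, *Ephb1*, *Ephb6*, *Plxna3*, *Plxnd1*, *Sema4g*, *Sema6c*, *Unc5c*, *Unc5d* and the netrins. For 14 genes the total over both libraries was 100 UMIs or fewer, among them *Epha6* (1 and 0 UMIs), *Robo4* and the antisense transcripts *Plxna4os1* (3 and 2 UMIs), *Plxna4os2* (2 and 1) and *Plxna4os3* (0 and 0). The levels of those 14 genes are not compared between classes here.

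**Figure D3:**
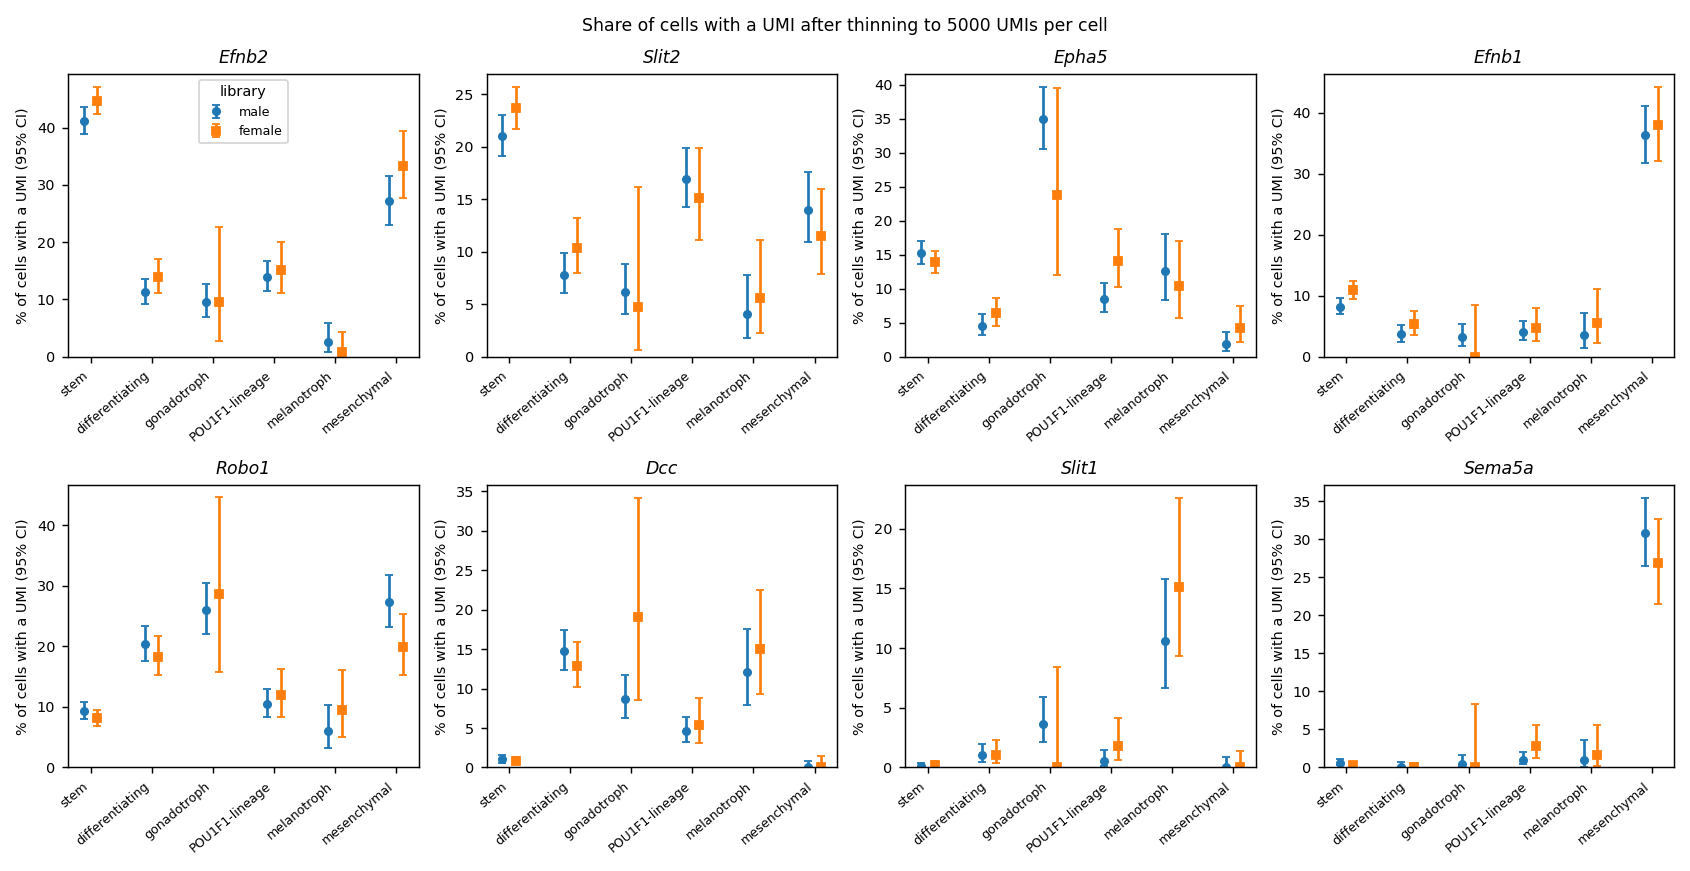
Share of cells, in percent, with at least 1 UMI of *Efnb2*, *Slit2*, *Epha5*, *Efnb1*, *Robo1*, *Dcc*, *Slit1* and *Sema5a* after every cell was thinned to 5000 UMIs, with exact binomial 95% intervals, by class, with circles for the male and squares for the female library. *Efnb1* was found in 36.3% and 37.9% of mesenchymal cells and *Slit1* in 10.6% and 15.1% of melanotrophs, and the wide female gonadotroph intervals come from 42 cells.

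Differentiating cells were next set against SCs over all features. The gates differ in more than *Lef1*, since SCs needed a *Sox9* UMI and differentiating cells did not. *Sox9* was at 154 and 188 CPM in SCs and at 31.4 and 35.0 CPM in differentiating cells. *Sox2* was at 656 and 790 CPM in SCs and at 375 and 473 CPM in differentiating cells. Of 33 guidance genes with enough UMIs, 4 were higher in differentiating cells (all features: 4.19% of 10432) and 8 were lower (all features: 10.9%). The median log2 ratio was −0.57 over the guidance genes and 0.00 over all features tested. The higher genes were *Sema3d* (7.06-fold and 11.1-fold), *Plxna4* (3.20-fold and 4.52-fold), *Robo1* (2.57-fold and 2.27-fold) and *Sema4c* (2.28-fold and 2.62-fold). The lower genes were led by *Epha4* (8.69-fold and 5.69-fold) and *Efnb2* (3.82-fold and 3.40-fold). They also included *Slit2* (2.84-fold and 2.64-fold), *Plxnb2* (2.75-fold and 2.45-fold), *Epha1* (2.72-fold and 3.11-fold), *Epha5* (2.58-fold and 2.38-fold), *Ephb1* (3.28-fold and 2.18-fold) and *Sema4b* (2.18-fold and 2.02-fold). With a single *Lef1* UMI as the gate, *Epha5*, *Ephb1* and *Sema4b* were no longer called and *Efna1* was, leaving 6 lower genes.

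By role, the lower genes comprised 4 Eph receptors, 1 ephrin, 1 Slit, 1 plexin and 1 semaphorin, and the higher genes 2 semaphorins, 1 plexin and 1 Robo. Family shares among the genes with enough UMIs were not computed, so these counts describe the lists only. Of 38 further genes of the same pathways that the symbol rule does not take, such as co-receptors and intracellular adaptors, 33 had enough UMIs. Of these 7 were higher in differentiating cells, including *Dcc* (11.4-fold and 11.2-fold), *Nrp1* (3.79-fold and 3.35-fold) and the collapsin response mediator *Crmp1* (13.3-fold and 12.7-fold). Another 8 were lower, including *Nrp2* (4.46-fold and 5.15-fold) and *Rgma*, a neogenin ligand (6.41-fold and 4.64-fold). A list of 3 neuronal genes moved in the same direction as the higher genes. *Tubb3*, *Elavl3* and *Stmn2* summed to 9.10 and 5.01 CPM in SCs and 124 and 61.6 CPM in differentiating cells, with all 3 above 0 in both classes, and their part in these differences was not tested. The gonadotroph markers *Foxl2* and *Neurod1* were also higher in differentiating cells, as given above, and their part was not tested either.

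The endocrine classes combined (1501 and 452 cells) were compared with SCs in the same way. Of 35 guidance genes with enough UMIs, 2 were higher (all features: 7.29% of 10787) and 7 were lower (all features: 10.2%), with a median log2 ratio of −0.58 against −0.00 over all features. *Slit1* was higher (6.85-fold and 8.91-fold), at 8.24 and 12.9 CPM over all endocrine cells, most of it in melanotrophs as described above. *Plxna4* was higher (2.76-fold and 5.34-fold), and both it and *Slit1* were at 2.34 CPM or less in SCs. A *Plxna4* UMI was found in 6.62% and 7.14% of thinned gonadotrophs and in 5.05% and 18.3% of thinned melanotrophs. In the POU1F1 lineage its share was 1.40% and 0.722%, against 1.09% and 0.982% of SCs. *Efnb2* was lower (4.49-fold and 5.46-fold), at 27.1 CPM (25.1 to 29.2) and 24.0 CPM (20.4 to 28.0). The other lower genes were *Epha1*, *Ephb4* (2.80-fold and 3.44-fold), *Ephb1*, *Efna4* (2.52-fold and 2.25-fold), *Efnb1* (2.08-fold and 2.48-fold) and *Plxnb2* (2.01-fold and 2.07-fold).

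Of the 7 genes lower in endocrine cells, 6 were ephrins or Eph receptors. The share of these families among the genes with enough UMIs was not computed, so the count describes the list only. With 5 CPM added in place of 1 only *Efnb2* and *Ephb4* were still called. *Efnb2*, *Epha1*, *Ephb1* and *Plxnb2* were lower in both the differentiating and the endocrine class, and *Plxna4* was higher in both, but the comparisons share the same SCs. Within the endocrine class the *Plxna4* shares of the POU1F1 lineage were close to those of SCs. *Epha4* was not called in endocrine cells as a group, since the POU1F1 lineage had 16.2 and 17.5 CPM. *Epha5* was likewise not called, with gonadotrophs above and the POU1F1 lineage below SCs in both libraries. Of the 33 further pathway genes with enough UMIs, 6 were higher and 8 lower. The neuronal list summed to 507 and 487 CPM in gonadotrophs, 189 and 102 CPM in the POU1F1 lineage and 201 and 339 CPM in melanotrophs, with all 3 genes above 0 in each, and its part in the higher genes was not tested.

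Mesenchyme was compared with SCs last. Of 37 genes with enough UMIs, 11 were higher (all features: 10.9% of 10688) and 11 were lower (all features: 12.1%), and the median log2 ratio was 0.06 against −0.05 over all features. The ligands among the genes that were higher were *Sema5a* (34.3-fold and 32.8-fold), *Sema3d* (30.6-fold and 44.4-fold), *Sema3a* (12.0-fold and 17.1-fold), *Sema3c* (11.0-fold and 9.90-fold), *Ntn1* (5.31-fold and 8.33-fold), *Efnb1* (4.75-fold and 4.81-fold), *Sema6c* (3.27-fold and 3.14-fold) and *Efna2* (2.35-fold and 2.77-fold). The receptors among the higher genes were *Plxna2* (5.22-fold and 4.59-fold), *Robo2* (3.67-fold and 4.18-fold) and *Robo1* (3.50-fold and 2.65-fold).

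Of the 11 genes lower in mesenchyme, 7 were Eph receptors, of which the symbol rule takes 9 EphA and 5 EphB genes. Their share of the genes with enough UMIs was not computed, so the count describes the list only. *Ephb1* was at 13.4 and 8.53 CPM in SCs, whereas mesenchyme had 0.455 CPM (0.0551 to 1.64) and 0.410 CPM (0.0104 to 2.28), from 2 and 1 UMIs. *Epha1* was at 8.75 and 10.2 CPM in SCs and had 2 and 3 UMIs in mesenchyme. The other Eph receptors were *Epha5* (5.97-fold and 3.09-fold), *Epha7* (3.52-fold and 2.33-fold), *Ephb3* (3.30-fold and 2.46-fold) and *Ephb2* (2.72-fold and 2.25-fold), and *Ephb6* was also called (2.46-fold and 2.89-fold). *Sema4b* (5.76-fold and 8.50-fold), *Plxnb1* (4.49-fold and 5.93-fold) and *Sema3f* (3.63-fold and 2.14-fold) were lower too. *Sema4d* completed the list, for which no fold is given because the female class had 0 UMIs, where the floor of 3 UMIs corresponds to 1.23 CPM. Endothelial markers (4 genes) summed to 234 and 264 CPM and pericyte markers (4 genes) to 304 and 215 CPM in mesenchyme, against 1.46 and 1.76 CPM and 3.63 and 3.80 CPM in SCs. *Emcn*, at 202 and 217 CPM, made up most of the endothelial sum. *Kdr* was at 3.18 and 2.46 CPM in mesenchyme against 0.837 and 1.53 CPM in SCs. *Pecam1* was at 0.455 and 0.820 CPM in mesenchyme against 0.453 and 0.185 CPM in SCs. All 8 markers were above 0 in the mesenchymal class, and their part in these differences was not tested. Of the 31 further pathway genes with enough UMIs, 4 were higher, including *Nrp1* (18.9-fold and 15.6-fold), and 4 were lower.

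**Figure D4:**
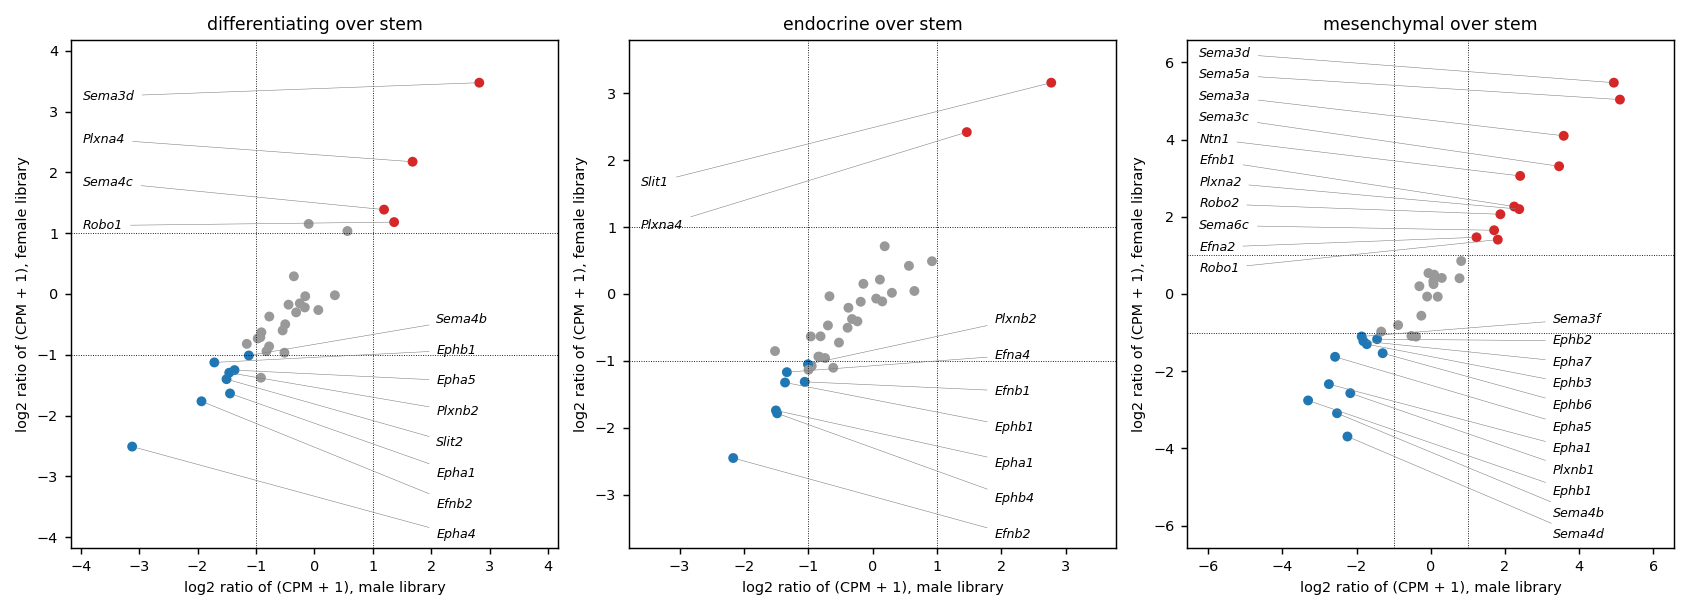
Log2 ratio of (CPM + 1) in the female library against that in the male library for guidance genes with enough UMIs, for differentiating, endocrine and mesenchymal cells over SCs, with dotted lines at 2-fold. Red points are genes called higher (4, 2 and 11) and blue points genes called lower (8, 7 and 11), and called genes lie in the same quadrant in both libraries because the call requires it.

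SCs were divided by *Ednrb*, the endothelin B receptor gene, into cells with at least 2 UMIs (472 and 783) and cells with none (969 and 721). Of 32 guidance genes with enough UMIs, 0 were called higher (all features: 0.413% of 10414) and 0 lower (all features: 0.202%). *Slit3* came nearest, at 10.3 and 4.28 CPM in *Ednrb*-positive and 18.2 and 14.3 CPM in *Ednrb*-negative SCs, where the male library fell short of 2-fold. *Slit2* was at 59.4 and 65.7 CPM against 44.6 and 51.6 CPM, and *Epha4* at 21.8 and 16.5 CPM against 12.9 and 11.9 CPM, both less than 2-fold. The male *Ednrb*-positive cells were deeper than the negative ones (medians of 16466 and 10695 UMIs), whereas the female ones were close (10247 and 9633 UMIs).

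Within SCs the libraries of the 2 sexes were close for nearly all guidance genes. At a 1.5-fold limit between single libraries, 1 of 32 was higher in the female library (all features: 1.38% of 10412) and 2 were lower (all features: 1.25%). *Efna5* was at 20.8 CPM in female and 13.1 CPM in male SCs, a ratio of 1.58 with limits of 1.30 and 1.92 set by the counting bounds. *Slit3* was 1.72-fold higher (1.35 to 2.22) and *Ephb1* 1.57-fold higher (1.23 to 2.02) in male SCs. Larger gaps stood in small classes, such as *Plxna4* in melanotrophs (10.5 CPM in 225 male and 33.8 CPM in 127 female cells). *Sema3a* was at 50.3 CPM in male and 80.3 CPM in female mesenchyme, with intervals that did not overlap. Sex, the pooled animals, the sort and the library cannot be told apart in this design.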

How the data were processed

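Single-cell RNA was measured with the 10x Genomics 3′ assay in GFP+ cells from 1 male and 1 female pool of 3 pituitaries. The authors aligned reads with Cell Ranger 3.0.2 to mm10 with eGFP added and deposited UMI counts per gene and cell, not normalised. The submitters' processing notes also name R 3.6.0 and Seurat 3 and 4. Cells with at least 50 genes and a mitochondrial share no more than 3 SD above the library mean (20.4% and 26.1%) were kept, which removed 159 and 85 barcodes. Doublets were not removed in the main values. Summed UMIs, CPM, exact Poisson and Clopper-Pearson 95% intervals were computed with Python 3.11.15, numpy 2.4.6 and scipy 1.17.1, and Scrublet scores with scanpy 1.11.5, for which 0.8% per 1000 cells was marked. Calls used an offset of 1 CPM, and the calculations were tested on simulated data. Thinning to 5000 UMIs (seed 1) left out shallower cells: 86 and 30 SCs, 10 and 2 differentiating cells, 48 and 1 gonadotrophs, 74 and 5 POU1F1-lineage cells, 27 and 1 melanotrophs, and 67 and 28 mesenchymal cells. Genes at 10 CPM or more in both libraries in a class, and all genes called, were named with values. The genes, classes and lists were chosen with earlier results of these data known.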

Additional observations from a re-analysis of the deposited data

Results flagged for a closer look

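A gene is listed here when its ratio between classes went up in one library and down in the other. There were 15 such cases among the guidance genes with enough UMIs, and with 1 library per sex the difference between the libraries was not tested. Values are log2 ratios of (CPM + 1), with the female minus the male ratio given as the gap. *Slit3* had the widest gap in differentiating cells over SCs, 1.25 (male −0.10, female 1.15). In the same comparison the gap was 0.64 for *Ephb3* (−0.35 and 0.29), −0.37 for *Epha7* (0.35 and −0.02) and −0.33 for *Unc5a* (0.07 and −0.26). In endocrine cells, whose mix of classes differed between the libraries, over SCs it was −0.26 for *Efnb3*, −0.12 for *Sema3f* and 0.30 for *Sema4c*. In mesenchyme over SCs it was 0.60 for *Ephb4* (−0.06 and 0.54), 0.51 for *Efnb3* (−0.31 and 0.20) and −0.26 for *Sema6a*. In *Ednrb*-positive over *Ednrb*-negative SCs it was 0.10 for *Efna2*, −0.30 for *Epha7*, 0.27 for *Ephb3*, 0.11 for *Ephb6* and 0.32 for *Sema4c*. Apart from *Slit3* in the female library, every ratio listed was below 2-fold in both libraries.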

How the results depend on the processing

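The numbers of guidance genes at 10 CPM stayed within 1.5 times in all 6 classes when cells needed 2000 genes, when the highest Scrublet scores were removed, when gate minimums were doubled, when per-cell CPM was averaged and when 1 *Lef1* UMI was enough. The numbers called were more sensitive to the limit of the call, which by construction leaves fewer genes as it rises. With a 3-fold limit the genes called in differentiating cells were 2 higher and 2 lower, in endocrine cells 1 higher and 1 lower, and in mesenchyme 9 higher and 6 lower. With 5 CPM added, 3 genes were higher and 5 lower in differentiating cells, 1 higher and 2 lower in endocrine cells, and 10 higher and 6 lower in mesenchyme. With no filter on low values 6 genes were higher and 10 lower in differentiating cells, 6 higher and 7 lower in endocrine cells, and 14 higher and 16 lower in mesenchyme. In *Ednrb*-positive SCs 1 gene was lower by averaged per-cell CPM (*Slit3*) and 2 in the female library alone (*Epha3* and *Slit3*). The genes lost with 5 CPM added were *Sema4c* among the higher and *Epha1*, *Ephb1* and *Sema4b* among the lower genes of differentiating cells, *Plxna4* among the higher and *Efna4*, *Efnb1*, *Epha1*, *Ephb1* and *Plxnb2* among the lower genes of endocrine cells, and *Sema6c* among the higher and *Epha7*, *Ephb2*, *Ephb3*, *Ephb6* and *Sema3f* among the lower genes of mesenchyme. In endocrine cells *Efna4* was also lost with doubled gate minimums, and *Plxnb2* with averaged per-cell CPM. Of 72 single levels, doubled gate minimums moved 9 beyond their intervals, among them *Epha5* in gonadotrophs to 115 and 116 CPM. Without thinning, 35 of 36 shares of cells moved, as the depths differ. No paired analysis was possible because each sex is 1 library. Female gonadotrophs, with 43 cells, are the thinnest class.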
